A study of Mus musculus with 8 samples.

Results

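The 7 genes of the mouse cyclin-dependent kinase (CDK) inhibitors were followed in long-term hematopoietic stem cells (LT-HSCs) of the E14.5 fetal liver. They were taken by their symbols from a table of 55487 genes, without a filter on measured values but with earlier results of these data known. They were the 3 Cip/Kip genes *Cdkn1a* (p21), *Cdkn1b* (p27) and *Cdkn1c* (p57), and the 4 Ink4 genes *Cdkn2a* (p16 and p19Arf), *Cdkn2b* (p15), *Cdkn2c* (p18) and *Cdkn2d* (p19). Bulk RNA-sequencing was done on 8 samples of 500 sorted cells each, from embryos that were wild-type (WT, 3 samples), heterozygous (HET, also 3) or knockout (KO, 2 samples) for *Nfkbia*, the gene of the NF-κB inhibitor IκBα. The allele is a targeted knockout carried in every cell of the embryo, and the breeding animals could also carry a *Gfi1:tomato* reporter, whose presence in each sample the labels do not give. WT1, WT2 and HET1 came from male embryos and were labelled total RNA, while WT3, HET2, HET3, KO1 and KO2 came from female embryos and were labelled polyA RNA, so sex and the RNA label cannot be told apart. No KO sample was male. RNA was taken from several mice of each genotype, and the samples of a group are treated here as separate animals.

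CDK inhibitors slow or stop the cell cycle by binding the kinases that drive it. Cip/Kip proteins bind a broad range of cyclin-CDK complexes, while Ink4 proteins bind CDK4 and CDK6 and keep them from cyclin D, which leaves the retinoblastoma protein active. In blood stem cells these genes are best known as brakes that hold cells out of cycle, with p57 prominent in quiescent stem cells and p16/p19Arf known for their rise in aged or stressed cells.

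The libraries held 17895973 to 21720972 reads in genes. *Nfkbia* followed the labels: its CPM (reads per 1000000 reads of the library, the unit used below) were 45.3, 67.7 and 23.4 in WT1 to WT3, 23.3, 29 and 14.4 in HET1 to HET3, and 0.0489 and 0 in KO1 and KO2, which is 1 read in all over the KO samples. The markers of LT-HSCs did not follow the genotype alone. The summed level of 8 of them (*Kit*, *Ly6a*, *Slamf1*, *Procr*, *Hlf*, *Mecom*, *Tek* and *Fgd5*) was 1103, 1169 and 212 CPM in the WT samples, 390, 378 and 190 CPM in the HET samples, and 962 and 697 CPM in the KO samples. In HET3 *Ly6a*, which encodes the Sca-1 antigen used in the sort, was at 0, and *Procr* was at 1.13 CPM. WT3 and HET3 thus stood apart from their label of sorted LT-HSCs, and they held the highest summed hepatocyte markers (1132 and 548 CPM against 6.26 to 210 in the others) and the highest *Klf1*, an erythroid transcription factor (1040 and 1227 CPM). The fitted differences of the members, their ratios to the markers, the family shares and the gene lists are given below with and without these 2 libraries. In bulk samples, fewer cells of a type and less RNA per cell cannot be told apart.

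The sequence before 3 of the genes is shown because they had unlike readouts: *Cdkn1b* as a member that was higher in KO than in the female control libraries, *Cdkn1a* as a member that was not, and *Cdkn2a* with both of its starts because it had no read. Each stretch is part of the 250 bases before an annotated start in the RefSeq promoter table (GRCm38.p6), without the bases that lie in an annotated exon, and 6 of the 7 genes had an entry there. It is written 5′ to 3′ on the gene's own strand, with GC boxes (GGGCGG or its complement CCGCCC) and p53 half-sites in capitals. The 4 stretches are:
*Cdkn1a*, chr17:29090729-29090975, plus strand: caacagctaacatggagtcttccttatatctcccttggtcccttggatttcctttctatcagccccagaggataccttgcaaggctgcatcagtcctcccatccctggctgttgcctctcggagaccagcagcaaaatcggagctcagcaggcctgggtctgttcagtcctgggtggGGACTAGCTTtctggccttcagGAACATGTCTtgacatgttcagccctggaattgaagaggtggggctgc
*Cdkn1b*, chr6:134920151-134920400, plus strand: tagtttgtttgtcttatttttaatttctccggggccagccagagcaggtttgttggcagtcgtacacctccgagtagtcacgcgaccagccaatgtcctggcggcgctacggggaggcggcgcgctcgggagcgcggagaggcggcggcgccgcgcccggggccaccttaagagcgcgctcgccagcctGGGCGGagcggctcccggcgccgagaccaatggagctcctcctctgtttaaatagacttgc
*Cdkn2a*, p16 start, chr4:89282193-89282442, minus strand: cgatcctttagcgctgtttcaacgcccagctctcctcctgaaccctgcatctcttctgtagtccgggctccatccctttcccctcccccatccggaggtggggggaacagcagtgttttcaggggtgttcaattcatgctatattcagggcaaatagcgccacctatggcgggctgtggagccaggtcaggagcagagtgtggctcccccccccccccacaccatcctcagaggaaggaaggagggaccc
*Cdkn2a*, p19Arf start, chr4:89294654-89294869, minus strand: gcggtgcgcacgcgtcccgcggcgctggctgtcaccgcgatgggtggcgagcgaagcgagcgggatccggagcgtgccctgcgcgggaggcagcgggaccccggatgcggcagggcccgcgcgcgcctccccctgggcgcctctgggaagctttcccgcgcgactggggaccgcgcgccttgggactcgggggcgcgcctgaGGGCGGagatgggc

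Of the 250 bases before these starts, *Cdkn1a* held 2 matches to the p53 half-site and no GC box. A further start of *Cdkn1a* in the table (chr17:29093519-29093768), whose bases all lie in annotated exons and are not shown, held 2 GC boxes and 0 p53 half-sites. A p53 half-site was found on either strand in 7.13% of all 32851 promoters of that length, and a GC box in 32.7%. *Cdkn1b* held 1 GC box, the p19Arf start of *Cdkn2a* held 2 (1 of them in the bases shown), and the p16 start held 0. *Cdkn2d*, of which only 52 of the 250 bases lay outside annotated exons, held 3 GC boxes and 1 p53 half-site. A κB site, the motif bound by NF-κB and present in 7.25% of all promoters, was found in none of the 9 promoter entries of the 6 genes. A match describes these letters and not a bound site, and its absence says only that the letters are not in these windows.

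*Cdkn2a* and *Cdkn2b* were at or near 0. *Cdkn2a* (ENSMUSG00000044303, chromosome 4, 89274471 to 89294653, minus strand), whose p16 and p19Arf transcripts share exons and were counted together, had 0 reads in all 8 samples. A count of 0 allows up to 3 reads, which is 0.125 to 0.178 CPM in these libraries, for counting error only. *Cdkn2b* (ENSMUSG00000073802, chromosome 4, 89306299 to 89311039), its neighbour on the chromosome, had 4 reads in HET1, 2 in HET3 and 0 in the other 6. Both genes had fewer than the 10 reads over all samples needed for a test, which leaves 5 of the 7 members tested among 20610 genes. Neither a difference between genotypes nor its absence could be seen for these 2 genes at this depth.

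Among the other members, *Cdkn2d* was the highest once reads were divided by exon length. Its mean level over the 8 samples was 54.1 CPM per kb of exon, followed by *Cdkn1c* at 22.6, *Cdkn1a* at 2.19, *Cdkn2c* at 1.37 and *Cdkn1b* at 1.19. *Cdkn2d* exceeded *Cdkn1c*, and *Cdkn1c* exceeded *Cdkn1a*, in 8 of 8 samples. Lower in the order the ranks were not fixed: *Cdkn1a* exceeded *Cdkn2c* in 6 of 8 samples and *Cdkn2c* exceeded *Cdkn1b* in 4 of 8. *Cdkn1c* also varied most, 12.4-fold between its highest and lowest sample, against 4.04-fold to 4.88-fold for the other 4.

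*Cdkn1c* (ENSMUSG00000037664, chromosome 7, 143458339 to 143461050, minus strand) encodes p57 and is an imprinted gene expressed from the maternal chromosome. Its level was 80.5, 76.1 and 11.3 CPM in WT1 to WT3, 31.7, 25.4 and 6.52 CPM in HET1 to HET3, and 81 and 55.5 CPM in KO1 and KO2. KO1 was level with the 2 male WT libraries, KO2 lay below them, and both were above every female WT or HET library and above HET1. 30.7% of its exon bases are shared with *Gm44732* on the opposite strand, which had 0 reads in every sample.

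*Cdkn2d* (ENSMUSG00000096472, chromosome 9, 21288410 to 21291407, minus strand) encodes the Ink4 protein p19. It was measured at 117, 132 and 39.8 CPM in the WT samples, 101, 56.2 and 30.1 CPM in the HET samples, and 136 and 68.3 CPM in the KO samples. Here too WT3 and HET3 were the lowest, and both KO samples lay above the 3 female WT or HET libraries. *Cdkn1b* (ENSMUSG00000003031, chromosome 6, 134920401 to 134925513, plus strand), the gene of p27, gave 6.74, 8.02 and 1.72 CPM in WT, 6.65, 4.69 and 2.43 CPM in HET, and 7.68 and 5.31 CPM in KO. At a far lower level, its KO samples were again above the 3 female WT or HET libraries.

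*Cdkn1a* (ENSMUSG00000023067, chromosome 17, 29090976 to 29100727, plus strand) encodes p21, the CDK inhibitor that p53 induces. Its values were 9.36, 6.39 and 6.82 CPM in WT, 5.69, 14.4 and 3.56 CPM in HET, and 9.05 and 6.88 CPM in KO, so that the KO samples lay within both other groups. 7.68% of its exon bases are shared with *AC167363.2* on the opposite strand, which had at most 2 reads in a sample. *Cdkn2c* (ENSMUSG00000028551, chromosome 4, 109660876 to 109667189, minus strand), the gene of p18, was at 1.73, 3.47 and 3.12 CPM in WT, 8.45, 5.5 and 2.79 CPM in HET, and 1.76 and 2.65 CPM in KO. Its highest values were in HET1 and HET2, and its KO values were below all 3 female control libraries but within the WT range.

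**Figure D1:**
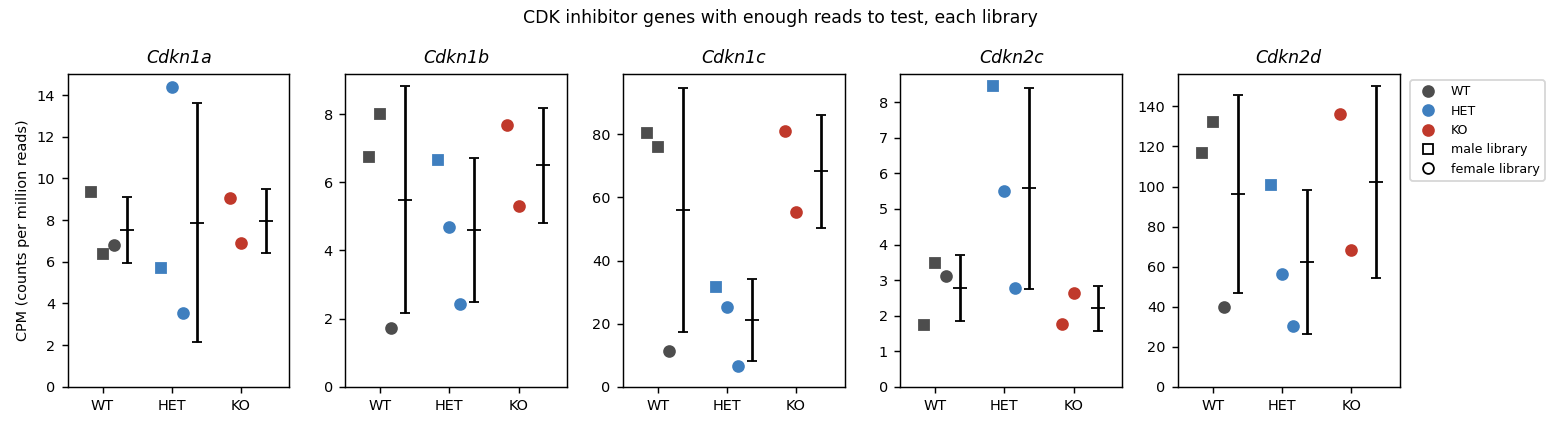
Level in CPM of the 5 tested CDK inhibitor genes in each library, by genotype, with squares for male and circles for female libraries and bars for the group mean ± SD over the 3 samples of WT or of HET or the 2 of KO. For *Cdkn1b*, *Cdkn1c* and *Cdkn2d* the 2 KO circles lie above the circles of WT and HET, 1 of them near the squares of the male WT libraries and the other below these.

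KO was compared with the 6 WT and HET samples to ask how the loss of IκBα changes these genes, with sex as a covariate. As both KO samples are female, the fitted KO difference rests on the 3 female references, WT3, HET2 and HET3. The male libraries inform the sex term and the spread, and without WT1 the log2 fold change of *Cdkn1c* stayed at 2.24. *Cdkn1c* was fitted 4.73-fold higher in KO (log2 fold change 2.24, SE 0.569), *Cdkn2d* 2.43-fold higher (1.28, SE 0.331) and *Cdkn1b* 2.2-fold higher (1.14, SE 0.481), while *Cdkn1a* (log2 fold change -0.05, SE 0.561) and *Cdkn2c* (-0.78, SE 0.71) were not higher. None of the 5 was called by edgeR's quasi-likelihood test at the limits used throughout (Benjamini-Hochberg adjusted p below 0.05 and a change of more than 1 on the log2 scale in either direction), where 0% of all genes tested were called. The adjusted p was 0.148 for *Cdkn1c* and *Cdkn2d* and 0.189 for *Cdkn1b*. At an unadjusted p under 0.05, 3 of the 5 members passed and all 3 were higher, beside 25.2% of all genes passing in either direction and 15.7% with a higher level. The median log2 fold change was 1.14 over the 5 members and 0.13 over all genes.

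The call depends on the tool. DESeq2, with or without apeglm shrinkage, called 2 members, *Cdkn1c* (adjusted p = 0.00813 in DESeq2, shrunken log2 fold change 1.88) and *Cdkn2d* (adjusted p = 0.019, shrunken 1.05), where it called 9.0% of all genes before shrinkage and 7.16% after it. edgeR also called these 2 members with every gene of at least 1 read in the test, beside 3.51% of those genes. It called *Cdkn1c* with WT only as the reference (adjusted p = 0.0292, beside 3.20% of all genes) or without HET2 (adjusted p = 0.04, beside 3.54%). In the exact two-sided permutation test of log2 CPM, which leaves sex out and cannot go below p = 0.0714 with 2 samples against 6, p was 0.286 for *Cdkn1c*, 0.5 for *Cdkn2d*, 0.571 for *Cdkn1b*, 0.714 for *Cdkn1a* and 0.214 for *Cdkn2c*. For all 5 members the KO samples overlapped the WT and HET samples. The share of all genes that did so is not given here, so this describes the members only.

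Within the female libraries alone, 2 KO were set against 1 WT and 2 HET. These references also set the KO difference above, so this is not a separate comparison. *Cdkn1c* was 4.56-fold higher (log2 fold change 2.19, SE 0.542, edgeR adjusted p = 0.119), *Cdkn2d* 2.34-fold higher (1.23, SE 0.359, adjusted p = 0.126) and *Cdkn1b* 2.12-fold higher (1.09, SE 0.56, adjusted p = 0.275). The 2 KO samples lay above all 3 female references for these 3 members, as they did for 27.1% of all genes, and below them for *Cdkn2c*, as for 21.4% of all genes. Against the 2 male WT libraries no member of the 5 was separated, again without a share over all genes to set beside it. The smallest p of an exact permutation test of 2 samples against 3 is 0.2.

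The difference in these 3 genes moved with the LT-HSC markers of the same libraries. All 8 markers were fitted higher in KO and passed an unadjusted p under 0.05, beside 15.7% of all genes passing with a higher level. Their median log2 fold change was 2.78. edgeR called 0 of 8, as it called 0% of all genes. DESeq2 with apeglm called 2 of 8, *Slamf1* and *Fgd5*, beside 7.16% of all genes. *Cdkn1c* amounted to 7.3%, 6.51% and 5.33% of the summed LT-HSC markers in WT1 to WT3, to 8.13%, 6.73% and 3.44% in HET1 to HET3, and to 8.42% and 7.96% in KO1 and KO2. KO1 was thus the highest and KO2 lay below HET1, with means of 8.19% ± 0.328 (SD, n = 2) in KO and 6.24% ± 1.65 (SD, n = 6) in WT and HET. The log2 ratio differed by 0.44 (exact two-sided permutation test, p = 0.143, with 0.0714 the smallest possible), by 0.2 without WT3 and HET3 (exact permutation p = 0.267, smallest possible 0.133) and by 0.72 in the female libraries (exact permutation p = 0.2, the smallest possible). *Cdkn2d* was 12% ± 3.08 (SD, n = 2) of the marker sum in KO and 16.2% ± 5.65 (SD, n = 6) in WT and HET, so its ratio was lower in KO where its level was higher (difference of -0.4 in log2 ratio, exact permutation p = 0.286, and -0.32 without WT3 and HET3). *Cdkn1b* was 0.78% ± 0.0258 (SD, n = 2) against 1.06% ± 0.424 (SD, n = 6), with a difference of -0.34 in log2 ratio (-0.31 without WT3 and HET3) and an exact permutation p of 0.571. *Kit* made up 148 of the 212 CPM of the marker sum in WT3 and 170 of the 190 CPM in HET3, against 231 of 962 CPM in KO1 and 228 of 697 CPM in KO2. In HET3 each of the other markers was at 13 CPM or less, beside 6.52 CPM of *Cdkn1c*. With all libraries, the ratio difference of *Cdkn1c* thus depends on *Kit* being in the sum, in direction as well as size. This scaling was chosen after the data were seen, and the part of the marker level in the result was not tested further.

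**Figure D2:**
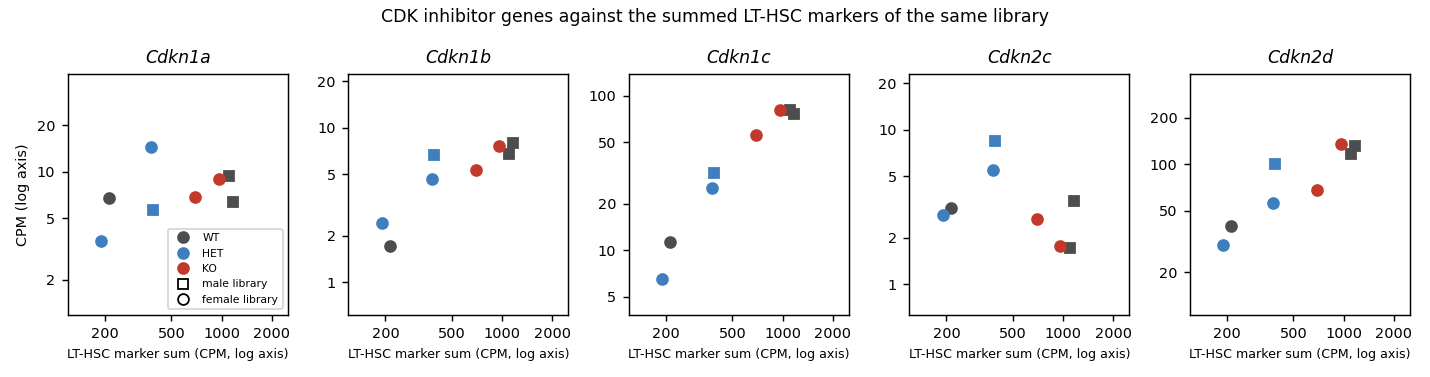
Level in CPM of each tested member (vertical, log axis) against the summed CPM of 8 LT-HSC markers in the same library (horizontal, log axis), coloured by genotype, with squares for male and circles for female libraries. *Cdkn1c* lies between 3.44% and 8.42% of the marker sum in all 8 libraries, while *Cdkn1a* spans 0.547% to 3.8% and *Cdkn2c* 0.157% to 2.17%. *Kit* alone is 148 of the 212 CPM of this sum in WT3 and 170 of the 190 CPM in HET3, against 231 of 962 CPM in KO1.

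Without WT3 and HET3, the 2 libraries lowest in LT-HSC markers, the fitted log2 fold change in KO fell to 1.39 for *Cdkn1c* (SE 0.598, edgeR adjusted p = 0.683), 0.83 for *Cdkn2d* (SE 0.437, adjusted p = 0.683) and 0.44 for *Cdkn1b* (SE 0.528, adjusted p = 0.77). It was -0.88 for *Cdkn1a* and -1.34 for *Cdkn2c*. In that fit HET2 is the only female library that is not KO, so the lone sample is assumed to vary like the others.

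The male and female libraries of WT and HET differed in the same 3 members. The fitted level was 3.69-fold higher in male libraries for *Cdkn1c* (log2 fold change 1.89, SE 0.682), 2.81-fold higher for *Cdkn1b* (1.49, SE 0.545) and 2.71-fold higher for *Cdkn2d* (1.44, SE 0.282), and their male and female values did not overlap, as for 21.1% of all genes with the male values on top. edgeR called none of them (adjusted p = 0.192, 0.193 and 0.176) and called 0.0146% of all genes. DESeq2 called all 3 and 8.92% of all genes, and edgeR called all 3 without HET2 (adjusted p = 0.000535 for *Cdkn1c*), as it then called 2998 of the 20610 genes. Male libraries had 390 to 1169 CPM of LT-HSC markers and female WT and HET libraries 190 to 378 CPM. Without WT3 and HET3 only 1 female library remains, and the log2 fold change was 0.32 for *Cdkn1c*, 0.5 for *Cdkn1b* and 0.85 for *Cdkn2d*. With all libraries *Cdkn1a* (-0.22, SE 0.64) and *Cdkn2c* (0.39, SE 0.557) differed by less than their standard error. Without WT3 and HET3 *Cdkn1a* was at -1.34 (SE 0.455, edgeR unadjusted p = 0.0129, adjusted p = 0.328) and *Cdkn2c* at 0.62 (SE 0.604).

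HET was compared with WT to ask for an effect of 1 missing copy. No member was called by edgeR with sex as covariate, where 0% of all genes were called, and 0 of 5 members passed an unadjusted p under 0.05, as 3.62% of all genes did. The log2 fold change was 1.06 for *Cdkn2c* (SE 0.561), 0.44 for *Cdkn1b*, -0.41 for *Cdkn1c*, -0.09 for *Cdkn2d* and -0.04 for *Cdkn1a*, with adjusted p from 0.932 to 1. DESeq2 called 0 of 5 and 0.311% of all genes. With the sample number as a block in place of sex, *Cdkn1c* was lower in HET (log2 fold change -1.25, SE 0.223, edgeR adjusted p = 0.044) and was the only member called, beside 1.37% of all genes. Without WT3 and HET3, *Cdkn1c* (-1.3, edgeR adjusted p = 0.00184) and *Cdkn2c* (1.7, adjusted p = 0.0412) were called, beside 9.53% of all genes. HET2 is then the only female library and sets the sex term alone, so these values compare HET1 by itself with WT1 and WT2 and assume that the lone sample varies like the others. HET1 had 390 CPM of LT-HSC markers against 1103 and 1169 in WT1 and WT2. A different effect of HET in male and female libraries was called for no member (interaction in edgeR, adjusted p from 0.554 to 0.817) and for 0% of all genes, but without HET3 the interaction was called for *Cdkn1c* (-2.47, adjusted p = 0.000466), beside 13.9% of all genes. HET1, WT3 and HET2 are each alone in their genotype and sex in that fit, and the spread comes from WT1 and WT2 only.

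**Figure D3:**
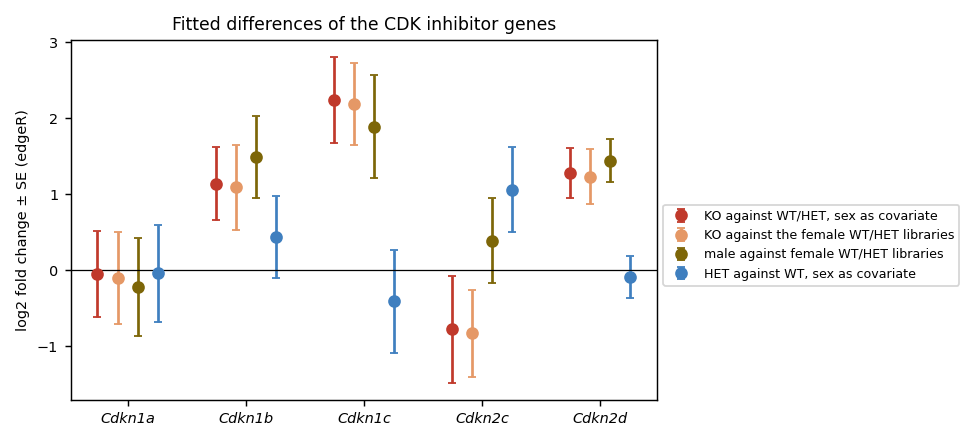
Log2 fold change ± SE from edgeR for the 5 tested members in 4 comparisons, one colour for each: KO against WT/HET, KO against female WT/HET, male against female libraries of WT and HET, and HET against WT. *Cdkn1b*, *Cdkn1c* and *Cdkn2d* are above 0 in KO against WT/HET and in male against female libraries, while *Cdkn1a* lies near 0 in these 4, all fitted with WT3 and HET3, and *Cdkn2c* is below 0 in KO.

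The 2 families were each carried by a single gene. *Cdkn1c* made up 67.6% to 91.3% of the Cip/Kip sum and *Cdkn2d* 94.5% to 99.2% of the Ink4 sum, both in CPM per kb. The Ink4 sum was the larger in all 8 samples. Cip/Kip took 36.7%, 32.4% and 22.9% of the total of both families in WT1 to WT3, 21.5%, 31.7% and 18.9% in HET1 to HET3, and 33.5% and 40.6% in KO1 and KO2. The mean share was 30.7% ± 7.09 (SD, n = 3) in WT, 24.1% ± 6.75 (SD, n = 3) in HET and 37% ± 4.98 (SD, n = 2) in KO, and the ranges of WT and KO overlapped. Without WT3 and HET3 it was 34.6% ± 3.06 (SD, n = 2) in WT and 26.6% ± 7.2 (SD, n = 2) in HET. KO1 had 44 CPM per kb of Cip/Kip and 87.2 of Ink4, next to 43.6 and 75.1 in WT1, while HET3 had 4.73 and 20.3. Without *Cdkn1c* the share of Cip/Kip was 5.73% in WT, 7.74% in HET and 5.58% in KO.

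**Figure D4:**
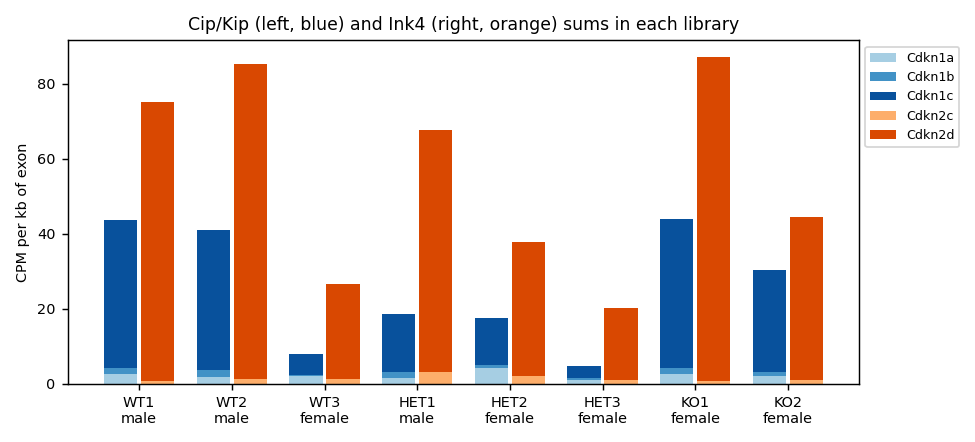
Summed CPM per kb of exon of the Cip/Kip genes (left bars, blue) and the Ink4 genes (right bars, orange) in each library, with each gene's part stacked. The Ink4 bar is the taller in every library, and both bars are lowest in WT3 and HET3.

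The kinases and cyclins that the inhibitors bind were measured in every library. None of the 12 was called by edgeR in KO against WT/HET, and the median log2 fold change was -0.35 against 0.13 for all genes. At an unadjusted p under 0.05, *Ccnd1* (0.81) and *Cdk2* (0.73) were higher, and *Ccne1*, the cyclin E gene of S-phase entry (-1.44), and *Ccna2*, the cyclin A gene of S phase and mitosis (-0.9), were lower. These are 4 of 12, beside the 25.2% of all genes that passed in either direction. *Ccne1* was the only one called by DESeq2 with apeglm, beside 7.16% of all genes. The Ink4 targets *Cdk4* (-0.32) and *Cdk6* (-0.98) did not pass, and *Cdk6* ranged from 50.4 CPM in WT1 to 220 CPM in WT3. Of the 11 genes of the retinoblastoma and E2F families, 0 were called by edgeR and 1, *E2f4*, was lower at an unadjusted p under 0.05 (-1.18). All 15 proliferation markers had a negative log2 fold change in KO, with a median of -0.4, but only 9 of 15 did with library size as the only scaling, which moved the median of all genes from 0.13 to 0.41. Of the 15, 3 passed an unadjusted p under 0.05, *Pcna* (-0.85), *Birc5* (-0.75) and *Rrm2* (-1.06), beside 25.2% of all genes, while 0 were called.

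Genes that act on the CDK inhibitors were measured as well. Of 11 genes for the turnover of the proteins, 0 were called by edgeR and 3 were lower at an unadjusted p under 0.05, *Cks1b* (-0.53) and *Cul1* (-0.44), both parts of the ligase that marks p27 for breakdown, and *Cul4a* (-0.64). Of all genes, 25.2% passed in either direction. *Skp2*, its substrate receptor, was at -0.09. Of 18 regulators of their transcription, 0 were called by edgeR and 4 by DESeq2 with apeglm, beside 7.16% of all genes. At an unadjusted p under 0.05, 5 were higher in KO: *Foxo1* (1.62) and *Smad4* (1.1), which act on Cip/Kip and Ink4 genes, *Gfi1* (2.71), and the retinoic acid receptors *Rara* (1.74) and *Rarg* (2.43). The Polycomb genes *Ezh2* (-0.4) and *Eed* (-0.47), known for silencing the *Cdkn2a* locus, were lower at that level. Of all genes, 15.7% passed with a higher level and 25.2% in either direction. *Gfi1* was at 9.89 CPM in WT3 and 1.54 CPM in HET3, against 75.7 to 116 CPM in WT1, WT2 and the KO samples, so it too was lowest in the libraries lowest in LT-HSC markers.

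Other p53 target genes were set beside *Cdkn1a*. Of 14 tested, 0 were called by edgeR, *Bbc3* (1.5) was higher and *Ccng1* (-0.76) and *Bax* (-0.56) lower at an unadjusted p under 0.05, and the median was -0.66. That is 3 of 14, beside 25.2% of all genes. *Trp53* itself was at -0.14. Of the imprinted neighbours of *Cdkn1c*, 10 of 11 had enough reads, 0 were called by edgeR, and 9 of 10 had a positive log2 fold change (8 of 10 with upper quartile scaling), with a median of 0.61. *Igf2* (2.2) and *Slc22a18* (1.61) passed an unadjusted p under 0.05, both higher, beside 15.7% of all genes passing with a higher level, and *H19* was at 1.36. *Kcnq1ot1*, the antisense RNA that silences *Cdkn1c* on the paternal chromosome, was at 0.1 (SE 0.654) and ranged from 28.2 CPM in HET2 to 152 CPM in HET1.

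Without WT3 and HET3, fewer genes of these lists passed an unadjusted p under 0.05 in KO, as did fewer of all genes (5.08%), and 0 were called by edgeR. Those passing were *Cdk2* (0.75) among the CDK and cyclin partners, *Pcna* (-0.99) among the proliferation markers and *Plk2* (-2.49) among the p53 targets. Of the regulators, *Smad4* (1.08), *Gfi1* (1.63), *Rarg* (2.7) and *Klf4* (-3.63) passed. These values set KO against HET2 alone, the only female library left that is not KO. *Klf4* peaked in HET2 (11.7 CPM), with 0.685 and 1.23 in KO, 0.608 and 0.627 in male WT and 4.04 in HET1. *Plk2* peaked there too (60.1 CPM), with 9.54 and 12.2 in KO, 11.9 and 12.8 in male WT and 13.2 in HET1. None passed among the 11 retinoblastoma and E2F genes, the 11 turnover genes and the 10 imprinted neighbours, in which *Igf2* was at 1.09 and *Slc22a18* at 1.4. The median was -0.3 for the proliferation markers, of which 14 of 15 were negative, and 0.55 for the imprinted neighbours, against 0.14 for all genes.

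**Figure D5:**
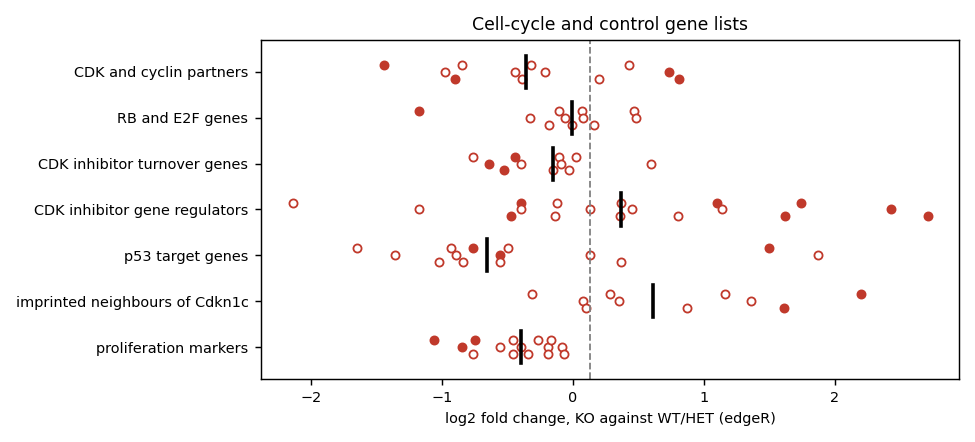
Log2 fold change in KO against WT/HET (edgeR) of the genes in 7 lists around the CDK inhibitors, with filled points for an unadjusted p under 0.05, black bars for list medians and a dashed line for the median of all genes, 0.13. All 15 proliferation markers lie below 0 at this scaling (9 of 15 with library size only), and no gene shown was called by edgeR.

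The genes whose log2 CPM ran most like each member over the 8 samples were searched among 8706 protein-coding genes. For *Cdkn1c* these were *Plcg2*, *Arid1b* and *Tnfrsf1a*, each with Pearson's r = 0.997, and for *Cdkn2d* they were *Neil3* (0.994), *Slc25a24* (0.994) and *Nfat5* (0.991). For *Cdkn1b* they were *Slfn9* (0.996), *Mfsd6* (0.99) and *Nemp2* (0.988), and for *Cdkn1a* they were *Dcp2* (0.918), *Atxn7l3b* (0.872) and *Prr12* (0.867). These are the highest of many values over 8 samples that share the differences between libraries given above, and they describe likeness only.

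The log2 values that the authors corrected for sex gave another view of the same libraries. *Cdkn1c* was at 11.53 and 11.07 in KO1 and KO2 and at 9.11 to 10.25 in the 6 WT and HET samples. *Cdkn2d* was at 12.12 and 11.24 against 10.36 to 11.03, and *Cdkn1b* at 8.85 and 8.62 against 8.14 to 8.56. On this scale the KO samples lay above all others for these 3 members, which they did not in CPM. For *Cdkn1a* (8.67 and 8.48 against 8.14 to 9.03) and *Cdkn2c* (7.96 and 8.11 against 7.8 to 8.57) they lay within the range of the others. The share of all genes with KO above all others on this scale is not given here. No KO sample was male, so the part of the sex correction in this cannot be told apart from the genotype. No test was run on these values, since the correction was estimated on the samples themselves.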

How the data were processed

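Sorted LT-HSCs (LSK CD48- CD150+) were sequenced as 50-bp single-end reads after amplification of the cDNA by long-distance PCR, so reads are not independent molecules and limits drawn from counts cover counting error only. The authors trimmed reads (Trim Galore 0.6.6), aligned them with STAR 2.7.8 to GRCm38 (Ensembl 102) and deposited raw counts of uniquely mapped reads per gene, with the strand setting not given in the sources used here. They also deposited log2-scale values, variance-stabilized with DESeq2 1.38.3 and corrected for sex with limma, which are shown for 5 members and not tested. 1 further KO sample was discarded by the authors for its sequencing quality.

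Gene symbols, coordinates and exon lengths came from GENCODE M21 (GRCm38), with 55227 of 55487 identifiers matched. CPM used library sizes scaled by TMM. Genes with at least 10 reads over the 8 samples were fitted with edgeR 4.0.16 (quasi-likelihood, R 4.3.3), with DESeq2 1.42.0 and apeglm 1.24.0 as alternatives, p-values were adjusted over all genes tested, and log2 CPM for permutations and likeness used a prior count of 2. SE is the log2 fold change over the root of its F statistic. CPM per kb divides by the union of exons. The fits were run on simulated counts in which all genes had the same spread beyond counting error. This checked the code and not the error rates in these libraries. The members, the gene lists and the markers were chosen with earlier results of these data known, and 1 LT-HSC marker is not reported here. Named are the 7 members, *Nfkbia*, members of the lists, and for each member with a mean of 5 CPM or more the 3 protein-coding genes (mean of 10 CPM or more) with the highest Pearson's r. Same-numbered WT and HET samples deviated together from their group means (correlations of 0.29, 0.2 and 0.59), which met the criterion for pairing in that comparison. Pairs with unlike numbers did so as well (0.4 for WT2 and HET1, 0.23 for WT1 and HET2), so the likeness is not particular to the numbers. KO1 gave 0.28 with WT1 and 0.24 with HET1, while KO2 gave -0.35 with WT2 and -0.12 with HET2. As the 2 KO samples deviate from their mean in exactly opposite ways, these values cannot decide on pairing with KO. No 2 samples of a group agreed within sampling noise. Alternatives were other normalizations, filters, covariates, tools and references, and each sample left out, with 1 set, the 2 libraries lowest in LT-HSC markers left out, added after the data were seen.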

Additional observations from a re-analysis of the deposited data

Results flagged for a closer look

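*Cdkn1b* stood out because HET lay on opposite sides of WT in male and female libraries: HET1 was at 6.65 CPM against 6.74 and 8.02 in WT1 and WT2, while HET2 and HET3 were at 4.69 and 2.43 against 1.72 in WT3. The interaction in edgeR was -1.2 on the log2 scale (SE 0.931) with an adjusted p of 0.635, and the male gap is smaller than that between the male WT libraries. *Cdkn2b*, outside the tests, had 4 reads in HET1, above the 3 reads that a count of 0 allows, and 0 reads in the 3 WT samples. None of the 5 tested members had a sample far from the rest of the 6 WT and HET samples by Dixon's criterion.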

How the results depend on the processing

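For KO against WT/HET, edgeR called 0 of 5 members. DESeq2, DESeq2 with apeglm and edgeR on all genes with 1 or more reads each called 2. With WT only as reference the fit sets KO against WT3 alone, and its calls are not given here. Leaving out each sample gave 0 to 1. *Cdkn1a* turned to 0.22 with library size only, 0.02 with 10 or more reads in every sample, 0.05 without sex, 0.23 with WT only, and lay between -0.43 and 0.62 with a sample left out. *Cdkn1b*, *Cdkn1c* and *Cdkn2d* stayed above 0 and *Cdkn2c* below 0 in all 22 alternatives, but their size did not hold: without sex *Cdkn1c* was at 0.82 and *Cdkn1b* and *Cdkn2d* at 0.36, with sex and the replicate block they were at 1.44, 0.43 and 0.7, and without KO1 *Cdkn2d* was at 0.7. With sex and the replicate block, edgeR called no member and 0 of all genes.

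The lists around the CDK inhibitors had 0 calls in the edgeR fit. CDK and cyclin partners had 1 under DESeq2 and under apeglm. RB and E2F genes had 1 under DESeq2 and with all genes of 1 or more reads. The regulators had 5, 4 and 4 under DESeq2, apeglm and all genes of 1 or more reads. The p53 targets had 0 to 1 with a sample left out. *Nfkbia* was fitted at -9.5 in KO (edgeR adjusted p = 0.0862). It was called at -9.86 by DESeq2, -9.42 by apeglm and -9.5 with all genes of 1 or more reads, and was at -9.58 with WT only. With a sample left out it ran from -11.8 to -8.66, and 2 of these fits called it.

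For HET against WT, the replicate block called 1 member and the fit without WT3 and HET3 called 2. *Cdkn1a* was 0.07, *Cdkn1b* -0.26, *Cdkn1c* -1.4 and *Cdkn2d* -0.62 without sex, *Cdkn1b* was -0.11 with the replicate block and -0.15 without WT3 and HET3, and with a sample left out *Cdkn1a* ran from -0.66 to 0.39, *Cdkn1b* from -0.15 to 1.05, *Cdkn1c* from -1.3 to 0.5 and *Cdkn2d* from -0.34 to 0.12. For male against female libraries DESeq2 called 3 members, samples left out gave 0 to 3, *Cdkn1a* ran from -0.66 to 0.4 and *Cdkn2c* from -0.32 to 1.03. The sex by HET interaction gave 0 to 1 calls with a sample left out, *Cdkn1a* from -1.54 to 0.47 and *Cdkn2d* from -0.8 to 0.1; leaving out WT3 or HET1 leaves no such term. The share of Cip/Kip rose to 38.8% in WT, 32.6% in HET and 45.1% in KO without division by length, and fell to 5.73%, 7.74% and 5.58% without *Cdkn1c*. The cause of these shifts was not tested. With 2 KO samples and 33 to 192 reads of *Cdkn1b* and 36 to 159 of *Cdkn2c* per library, small differences in these 2 genes could not be resolved.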
